A study of Mus musculus with 16 samples.

Results

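The pentose phosphate pathway and the other main sources of NADPH were followed in mouse liver as 10 genes: G6pdx, H6pd, Pgd, Pgls, Tkt, Taldo1, Rpia, Me1, Idh1 and Nnt. They were taken by name from the gene column of the array files, where 18 probes carried 1 of these names among 27975 gene names. All 10 genes were among the 16376 genes tested, so no member was lost to the filter on dim probes, and the probe used for each was well above background in all 24 channels read.

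Liver RNA was hybridised to 2-colour Agilent arrays as 8 dye-swapped experiments, each of which counts as 1 replicate. Experiments 1 and 4 set Nrf2 KO (Nrf2–/–) against wild type. Atg7 cKO (Atg7F/F:Mx1-Cre) was paired with wild type in experiments 2 and 5, and the double knockout (Atg7F/F:Mx1-Cre:Nrf2-/-) in 3 and 6. In experiments 7 and 8 both Atg7-deficient genotypes shared an array, double knockout against Atg7 cKO. Per the labels, mice were given pIpC at 8 weeks of age, the controls included, and livers were taken 4 weeks later (the growth protocol speaks of treatment with pIpC over these 4 weeks). The Mx1 promoter that drives Cre is switched on by pIpC through interferon, in hepatocytes and in other cell types such as blood cells, so deletion of Atg7 need not be limited to 1 cell type. The Nrf2 deletion was not driven by Cre and holds in all cells of the Nrf2 KO and of the double knockout. Animal numbers, strain and sex are not stated in the labels, so the spread between experiments may be partly technical. For the comparisons with wild type it also spans a difference in sex-linked transcripts, given below.

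NADPH is the electron donor for glutathione and thioredoxin reduction, for many detoxifying reductases and for the synthesis of fatty acids and sterols. In the oxidative branch of the pathway glucose 6-phosphate is oxidised to ribulose 5-phosphate with the release of NADPH. The reversible branch interconverts sugar phosphates, yields ribose for nucleotides and returns surplus carbon to glycolysis. Nrf2, the product of Nfe2l2, is a transcription factor that Keap1 holds inactive. When autophagy fails the receptor p62 builds up, binds Keap1 and releases Nrf2. In other cells several of these genes, among them G6pdx, Pgd, Tkt, Taldo1, Me1 and Idh1, are known targets of Nrf2, which binds antioxidant response elements.

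The promoters below are shown so that the elements described in such genes can be looked for beside the values. RefSeq promoter windows on GRCm38.p6, each from 250 bases before to 50 bases after a start site, were at hand for 9 of the 10 genes, with 12 windows in all. The first window is printed for the 5 genes taken by number of calls and then by size in Atg7 cKO. These lie at chr1:65186430-65186729 (Idh1, minus strand), chr4:149166656-149166955 (Pgd, minus), chrX:74428831-74429130 (G6pdx, minus), chr7:141391910-141392209 (Taldo1, plus) and chr14:30548881-30549180 (Tkt, plus). Capitals mark a match to the core of the antioxidant response element, TGACNNNGC, on either strand.
Idh1: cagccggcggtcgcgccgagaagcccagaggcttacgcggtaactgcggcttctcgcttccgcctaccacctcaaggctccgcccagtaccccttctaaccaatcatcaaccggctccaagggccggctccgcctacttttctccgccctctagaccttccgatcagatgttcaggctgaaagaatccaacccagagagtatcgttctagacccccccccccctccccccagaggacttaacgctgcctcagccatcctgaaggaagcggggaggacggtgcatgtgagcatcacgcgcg
Pgd: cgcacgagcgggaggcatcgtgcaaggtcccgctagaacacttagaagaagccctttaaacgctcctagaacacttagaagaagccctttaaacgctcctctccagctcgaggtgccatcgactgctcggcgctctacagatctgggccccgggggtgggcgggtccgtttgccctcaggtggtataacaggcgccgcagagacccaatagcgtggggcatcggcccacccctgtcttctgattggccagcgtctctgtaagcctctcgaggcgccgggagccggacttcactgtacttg
G6pdx: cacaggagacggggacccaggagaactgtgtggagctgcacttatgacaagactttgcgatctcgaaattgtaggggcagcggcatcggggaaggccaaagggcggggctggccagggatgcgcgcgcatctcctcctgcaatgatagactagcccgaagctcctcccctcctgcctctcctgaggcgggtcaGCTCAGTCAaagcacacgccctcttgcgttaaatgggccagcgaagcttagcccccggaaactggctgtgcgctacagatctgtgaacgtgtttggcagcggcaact
Taldo1: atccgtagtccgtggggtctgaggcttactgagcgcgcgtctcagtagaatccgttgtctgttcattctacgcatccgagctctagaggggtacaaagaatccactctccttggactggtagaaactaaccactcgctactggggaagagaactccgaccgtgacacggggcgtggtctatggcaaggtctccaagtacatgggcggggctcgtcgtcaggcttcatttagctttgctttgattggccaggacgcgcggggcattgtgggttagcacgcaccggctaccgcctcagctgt
Tkt: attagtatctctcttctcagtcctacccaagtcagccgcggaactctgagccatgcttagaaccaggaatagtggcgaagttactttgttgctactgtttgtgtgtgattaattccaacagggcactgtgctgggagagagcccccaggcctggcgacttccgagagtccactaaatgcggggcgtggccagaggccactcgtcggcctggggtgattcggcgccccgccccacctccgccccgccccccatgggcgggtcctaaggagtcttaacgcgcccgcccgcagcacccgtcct

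Of the 12 windows 3 held the antioxidant core, against 12.4% of all 32851 RefSeq windows of this length. In G6pdx it lay on the minus strand at position -57 from the start site. In Pgd no match lay in the window printed, but a second start site of the gene had one at position 3, downstream of that start site. The Me1 match, on the plus strand at position -6 of the window chr9:86695865-86696164 (minus strand), is shown with 10 bases on each side and was picked after the search.
Me1: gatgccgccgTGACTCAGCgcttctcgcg

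The Tkt, Taldo1 and Idh1 windows printed above held no match. The core of the sterol element, TCACNCCAC on either strand, was in no window of the 9 genes and in 1.24% of all windows. A match is a string of letters and not a shown binding site, and the absence of a match covers this window alone.

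The targeted genes followed the labels. Nfe2l2 had log2 ratios of -3.78 and -3.97 in Nrf2 KO, 1.26 and 1.13 in Atg7 cKO and -3.31 and -4.10 in the double knockout. Atg7 had -0.79 and -0.82 in Atg7 cKO and -0.73 and -0.73 in the double knockout, on a dim probe whose ratio is shrunk by the offset of the background correction. Experiments 1 to 3 and 4 to 6 differed in sex-linked transcripts in both channels. Xist lay between 5.75 and 5.80 on the log2 scale in experiments 1 to 3, and between 10.87 and 11.35 in experiments 4 to 6. Ddx3y, on the Y chromosome, showed the opposite pattern (7.65 to 7.89 and 5.75 to 5.81). That is the pattern of male liver in experiments 1 to 3 and of female liver in 4 to 6. The 2 values of a comparison with wild type therefore differ in sex as well. Their SD, their SE and the fits that leave out 1 experiment cannot tell sex from other spread. The first value given for a comparison with wild type below is from experiments 1 to 3, the second from 4 to 6, so each is also the value within its set. Wild-type ranges of signal given below pool both sets. Ratios of the direct comparison come from the deposited ratios, which carry no such offset, so their sizes are not on the same scale as the ratios to wild type.

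In Atg7 cKO liver Tkt, Taldo1 and Rpia of the reversible branch rose with G6pdx and Pgd, while Idh1 fell and Me1, Pgls, H6pd and Nnt passed no threshold. Of 10 genes 5 were called higher and 1 lower by limma (adjusted p under 0.05 over all genes), against a background of 23.4% of all genes higher and 16.3% lower. The median log2 ratio of the 10 genes was 0.36, and that of all genes 0.004. In the double knockout against wild type 1 gene was called higher (G6pdx) and 3 lower (Pgls, Me1 and Idh1), against 21.4% and 16.0% of all genes, with a median of 0.08 (all genes 0.005). In the direct comparison of the double knockout with Atg7 cKO 0 genes were called higher and 5 lower (Pgd, Tkt, Taldo1, Me1 and Idh1), against 6.74% and 8.08% of all genes, with a median of -0.75 (all genes 0.007). When experiments 7 and 8 were fitted alone, none of these 5 calls was kept (limma adjusted p = 0.0529, 0.0697, 0.104, 0.0759 and 0.165 in this order).

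**Figure D1:**
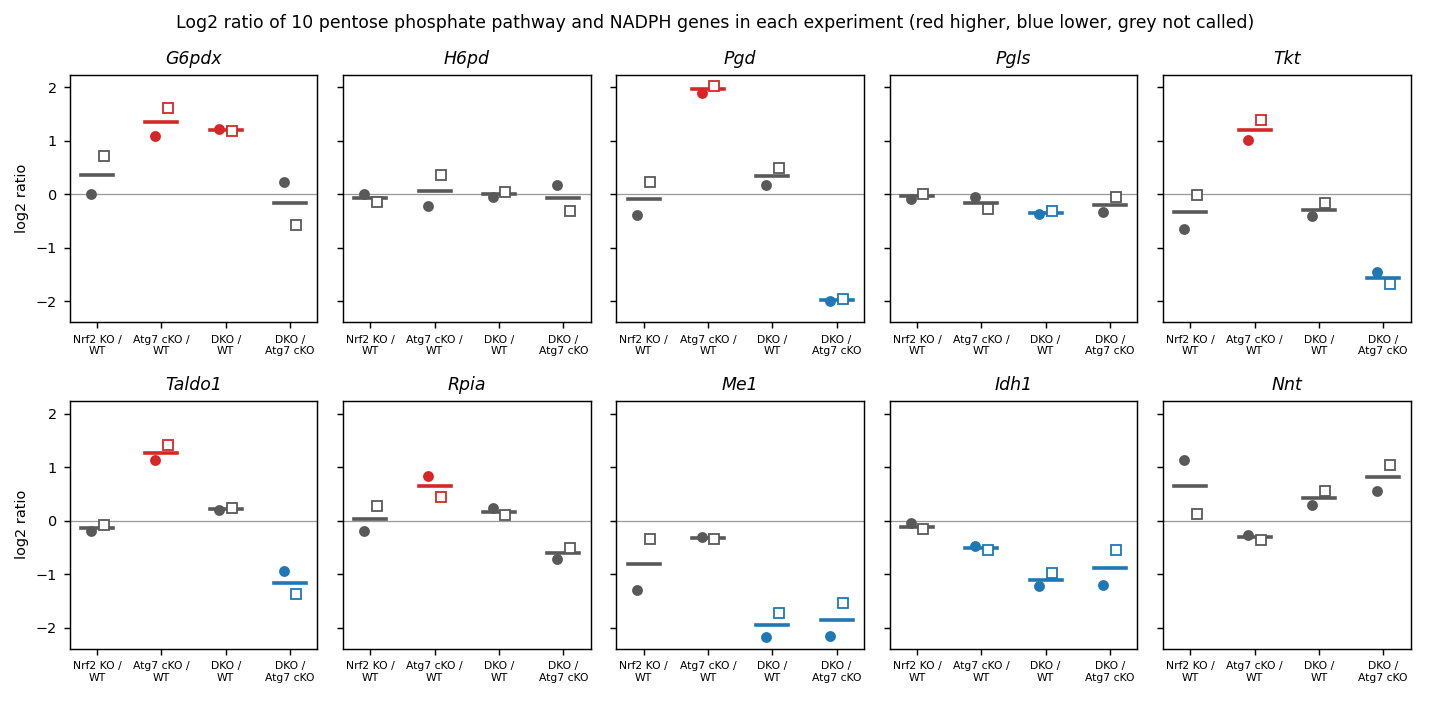
Log2 ratios of the 10 genes in the 2 experiments of each comparison (filled circle for the lower experiment number, open square for the higher, bar for the fitted mean), coloured red where called higher, blue where called lower and grey where not called. WT is wild type and DKO the double knockout. Pgd, Tkt and Taldo1 lie above 1 in Atg7 cKO against wild type and at or below -0.94 in the double knockout against Atg7 cKO, while G6pdx lies above 1 in both Atg7-deficient genotypes.

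G6pdx encodes glucose-6-phosphate dehydrogenase, which commits glucose 6-phosphate to the pathway. Its normalised signal was 298.1 and 432 in Atg7 cKO and 357.9 and 299.3 in the double knockout, against 129 to 152 in wild-type channels (median 138, 6 experiments). Every Atg7-deficient value lay above every wild-type value. In Nrf2 KO the signals were 129.8, inside the wild-type range, and 224.7, above it. Their log2 ratios were 0.01 and 0.72, a mean of 0.36 (SE 0.2, limma adjusted p = 0.9998). On the deposited ratios, which carry no offset, these were -0.02 and 1.12. There Atg7 cKO had a mean of 1.67 and the double knockout one of 1.54. The values that follow are again those with the offset, except in the direct comparison. The log2 ratio was 1.36 in Atg7 cKO (SD 0.38, n = 2; limma adjusted p = 0.00597). The double knockout had 1.21 (SD 0.04, n = 2; limma adjusted p = 0.00866). The direct comparison gave 0.24 and -0.58, values of opposite sign, with a mean of -0.17 (SE 0.32, limma adjusted p = 0.749). With slide as a block the ratio in the double knockout was 0.58 and missed the threshold (limma adjusted p = 0.0513). That fit estimates the ratio for the first slide, which held no double knockout array, and the observed ratios were 1.23 and 1.18.

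Pgd encodes 6-phosphogluconate dehydrogenase, which makes the other NADPH of the oxidative branch, and it had the largest ratio of the 10 genes in Atg7 cKO. Signals were 2588.3 and 2241.1 in Atg7 cKO and 590.9 and 493.2 in the double knockout, against 348 to 695 in wild type (median 492). The Atg7 cKO values stood apart from all others, and those of the double knockout lay inside the pooled wild-type range. Each double knockout value nevertheless exceeded that of its wild-type partner on the same arrays (523.7 and 348.3). In Nrf2 KO the signals were 351.5 and 498.3, again within the pooled wild-type range. The value of experiment 1, 351.5, lay below the wild-type values of experiments 1 to 3 (460.1 to 694.7). The log2 ratio was 1.97 in Atg7 cKO (SD 0.10, n = 2; limma adjusted p = 0.001385), a 3.91-fold rise. Against wild type the double knockout had 0.17 and 0.5, a mean of 0.34 (SE 0.161, limma adjusted p = 0.161). Directly against Atg7 cKO the double knockout had -2.0 and -1.95, a mean of -1.98 (limma adjusted p = 0.00388). A second Pgd probe gave 1.57, 0.15 and -1.81 in the same 3 comparisons.

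Tkt and Taldo1 encode transketolase and transaldolase, the enzymes that move carbon units between sugar phosphates in the reversible branch. Tkt signals were 6620.5 and 7997.6 in Atg7 cKO and 2685.2 and 2826.2 in the double knockout, against 2966 to 3578 in wild type (median 3210). The double knockout values were below all 6 wild-type values, and so were the Nrf2 KO values of 2164 and 2926.8. The Tkt ratio was 1.20 in Atg7 cKO (SD 0.26, n = 2; limma adjusted p = 0.00548). The double knockout had -0.29 against wild type (limma adjusted p = 0.252) and -1.56 against Atg7 cKO (SD 0.16, n = 2; limma adjusted p = 0.0065).

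Taldo1 signals were 8587.3 and 9474.4 in Atg7 cKO and 5412.3 and 4472.5 in the double knockout, against 3532 to 4706 in wild type (median 4081). Of the double knockout values 1 lay above the pooled wild-type range and 1 inside it. The latter, 4472.5 of experiment 6, exceeded the wild-type values of experiments 4 to 6 (3531.5 to 4225.2). Both Nrf2 KO values (3726.2 and 3976.5) lay inside the pooled range too. Of these, 3726.2 of experiment 1 lay below the wild-type values of experiments 1 to 3 (3935.9 to 4706). The ratio was 1.27 in Atg7 cKO (SD 0.21, n = 2; limma adjusted p = 8.984e-04). The double knockout had 0.22 against wild type (limma adjusted p = 0.0878) and -1.16 against Atg7 cKO (SD 0.30, n = 2; limma adjusted p = 0.00629). In Nrf2 KO Taldo1 gave -0.19 and -0.09, and Tkt gave -0.64 and -0.02. With slide as a block Tkt stood at -0.78 in the double knockout against wild type (limma adjusted p = 0.0698). With the set of experiments as a block it was called, at -0.49 (limma adjusted p = 0.0135). Those values are estimates for the first slide and for the first set of experiments. The observed Tkt ratios were -0.41 and -0.16.

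Rpia, the isomerase that forms ribose 5-phosphate, had signals of 412.8 and 365.4 in Atg7 cKO and 248.3 and 278.5 in the double knockout, against 212 to 267 in wild type (median 255). Both Atg7 cKO values exceeded the wild-type range, and so did 1 of the double knockout values and 1 of the Nrf2 KO values (216.7 and 315.9). The ratio in Atg7 cKO was 0.65 (SD 0.27, n = 2; limma adjusted p = 0.0204), and the direct comparison, at -0.71 and -0.52, missed the threshold (limma adjusted p = 0.0812). With the direct comparison and the difference through wild type fitted together, Rpia was called lower in the double knockout than in Atg7 cKO (limma adjusted p = 0.0191). On the authors' processed signals the Atg7 cKO ratio was 0.66 with an adjusted p of 0.0504.

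**Figure D2:**
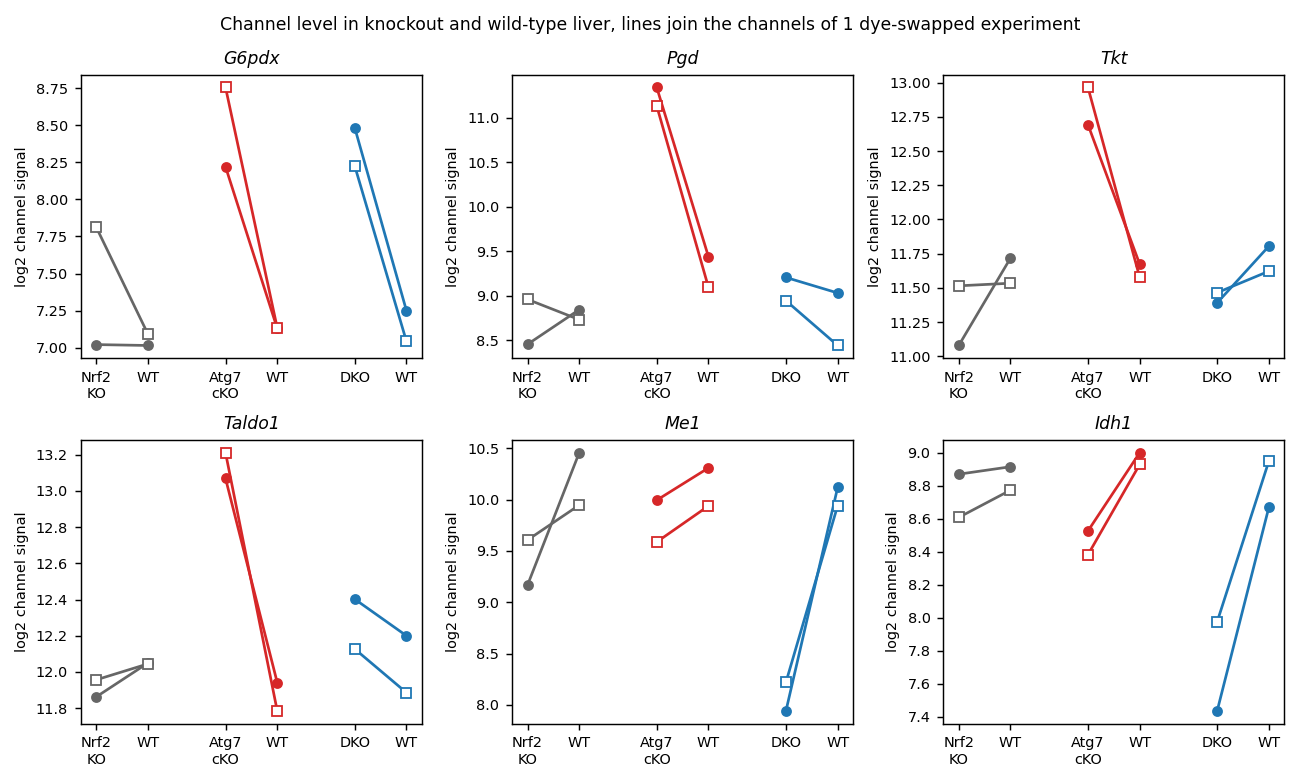
Log2 channel signal of 6 genes in knockout liver (left of each pair) and in the wild-type liver (WT) hybridised to the same arrays (right); a line joins the 2 channels of 1 dye-swapped experiment, with circles for the lower experiment number and squares for the higher. Nrf2 KO is grey, Atg7 cKO red and the double knockout (DKO) blue, and each panel has its own vertical scale. For Pgd, Tkt and Taldo1 the red lines fall steeply towards wild type, and for Me1 and Idh1 the blue lines climb steeply.

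Me1, the cytosolic malic enzyme that makes NADPH while turning malate into pyruvate, moved in another way. Signals were 574.8 and 779.4 in Nrf2 KO, 1019.6 and 769.1 in Atg7 cKO and 246.2 and 298.6 in the double knockout, against 981 to 1405 in wild type (median 1049). Both double knockout values lay below every other value, and both Nrf2 KO values and 1 Atg7 cKO value also lay below the pooled wild-type range. The other Atg7 cKO value, 1019.6 of experiment 2, lay below the wild-type values of experiments 1 to 3 (1112.3 to 1404.7). Me1 fell in the double knockout by 1.95 on the log2 scale against wild type (SD 0.32, n = 2; limma adjusted p = 0.00346), 3.86-fold lower, and by 1.85 against Atg7 cKO (SD 0.44, n = 2; limma adjusted p = 0.015). In Atg7 cKO it had -0.31 and -0.35 (limma adjusted p = 0.308). In Nrf2 KO the values were -1.29 and -0.34, both below 0 but far apart, with a mean of -0.81 (SE 0.235; unadjusted p = 0.0166 and adjusted p = 0.9998 by limma). Fitting single arrays with a dye effect and experiment as a random block brought that adjusted p to 0.037. With slide as a block the ratio in the double knockout was -2.40 and missed the threshold (limma adjusted p = 0.052). That value is again an estimate for the first slide, and the observed ratios were -2.18 and -1.72. A second Me1 probe gave -1.42 and -0.46 in Nrf2 KO, and for the double knockout -2.46 and -1.88 against wild type and -3.27 and -2.01 against Atg7 cKO.

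Idh1, the NADP-dependent isocitrate dehydrogenase of the cytosol and peroxisomes, was the gene called in the most comparisons. Signals were 368.5 and 333.7 in Atg7 cKO and 173.1 and 251.8 in the double knockout, against 407 to 512 in wild type (median 485). All 4 Atg7-deficient values lay below the wild-type range, and the double knockout values were the lower pair. Idh1 fell by 0.51 on the log2 scale in Atg7 cKO (SD 0.05, n = 2; limma adjusted p = 0.00646). The fall was 1.1 in the double knockout (SD 0.18, n = 2; limma adjusted p = 9.494e-04). Against Atg7 cKO the double knockout had -1.21 and -0.55 (limma adjusted p = 0.0373), a call that was lost in 8 of 14 alternative settings (adjusted p from 0.00583 to 0.284). In Nrf2 KO the ratios were -0.05 and -0.16, from signals of 467.8 and 390.2. The second signal, of experiment 4, also lay below the wild-type range, and below the wild-type values of experiments 4 to 6 (437.4 to 494.5).

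Pgls and H6pd changed little. Pgls, the lactonase between the dehydrogenases of the oxidative branch, had -0.36 and -0.32 in the double knockout against wild type. That is 1.27-fold lower and passed the test (limma adjusted p = 0.0167), but not with slide as a block (-0.27 as estimated for the first slide, limma adjusted p = 0.256). H6pd, which supplies NADPH inside the endoplasmic reticulum, had ratios between -0.21 and 0.36 over the 6 experiments with wild type and passed in 0 of the 4 comparisons.

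Nnt, the transhydrogenase of the inner mitochondrial membrane, had 1.14 and 0.13 in Nrf2 KO, -0.26 and -0.36 in Atg7 cKO and 0.30 and 0.56 in the double knockout against wild type. Against Atg7 cKO the double knockout had 0.56 and 1.05. No comparison passed (limma adjusted p = 0.9998, 0.332, 0.207 and 0.0905 in this order). Under some alternatives Nnt was called higher in the double knockout, against wild type with single arrays, a dye effect and experiment as a random block (limma adjusted p = 0.0376) and against Atg7 cKO with the direct route and the route through wild type fitted together (limma adjusted p = 0.0197). The Nrf2 KO signals of 1032.9 and 611.3 nevertheless both lay above the wild-type range of 440 to 557, and those of Atg7 cKO, 366.4 and 385.1, both below it. Of the double knockout signals 742.1 lay above it. The other, 553.1 of experiment 3, lay inside it but above the wild-type values of experiments 1 to 3 (439.7 to 467.1). A pair of further probes at the same end of the gene had 0.69 and 0.69 in experiment 1 and 0.17 and 0.11 in experiment 4. A dim probe of the other end (A_52_P593890, mm9 chr13:120182779-120182837, transcript AK087064) was well above background in 6 of 12 wild-type channels, 4 of these being partners of Atg7 cKO. It was so in 1 of 4 Nrf2 KO, 0 of 4 Atg7 cKO and 0 of 4 double knockout channels. Its signals near background were 66.3 and 62.8 in Nrf2 KO, against 67.2 and 66 in the wild-type partners. The C57BL/6J mouse strain carries a deletion in Nnt, and strain is not among the labels, so its part in these values was not tested.

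**Figure D3:**
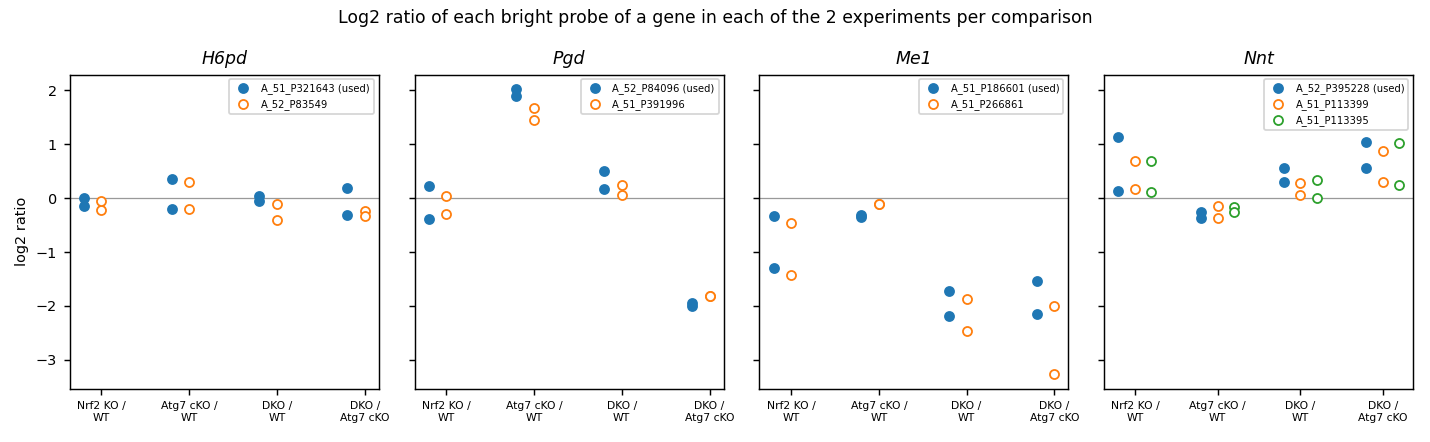
Log2 ratio of each bright probe of the 4 genes with more than 1 such probe, in both experiments of each comparison (WT is wild type, DKO the double knockout); filled points are the probe used in the tests and open points the others. The probes of Pgd and of Me1 lie on the same side of 0 in Atg7 cKO and in both double knockout comparisons, and those of Nnt are all above 0 in Nrf2 KO.

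H6pd, Pgd, Me1 and Nnt had further bright probes, which differed in size from the probe used, as shown in the plot of single probes. The H6pd probes also differed in sign in experiment 7 (0.18 for the probe used, -0.24 for the other). Tkt had a dim probe that was well above background in 4 of 4 Atg7 cKO, 1 of 4 double knockout and 1 of 12 wild-type channels. Another Tkt probe was so in 0 channels. The orientations of a dye swap differed by a median of 0.21 log2 units over 80 pairs (10 genes in 8 experiments), and by at most 0.59 (Tkt, experiment 4).

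Whether loss of Nrf2 acted differently with and without Atg7 was tested as an interaction, the double knockout ratio minus the Atg7 cKO ratio minus the Nrf2 KO ratio. Limma called 0 of 10 genes (4 had an unadjusted p under 0.05), against 0.128% of all genes called higher and 0.592% lower. The values were -1.55 for Pgd (SE 0.279, limma adjusted p = 0.0996), -1.16 for Tkt (SE 0.299, limma adjusted p = 0.192), -0.92 for Taldo1 (SE 0.141, limma adjusted p = 0.0748) and -0.49 for Idh1 (SE 0.134, limma adjusted p = 0.21). Me1 stood at -0.80 (SE 0.406, limma adjusted p = 0.464) and G6pdx at -0.51 (SE 0.346, limma adjusted p = 0.594). With the set of experiments as a block 1 gene passed (Pgd, -1.37, limma adjusted p = 0.044). That value is an estimate for the first set of experiments and not an average over the sets. With single arrays, a dye effect and experiment as a random block 4 did (Pgd, Tkt, Taldo1 and Idh1, limma adjusted p = 0.00126, 0.0063, 0.00797 and 0.0353).

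In Nrf2 KO itself limma called 0 of 10 genes, and 2 (Me1 and Nnt) had an unadjusted p under 0.05. The background there was 0.0122% of all genes lower and 0.0% higher, that is 2 genes of 16376, so few genes of any kind passed. The median ratio was -0.08 over the 10 genes.

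The calls rest on 2 experiments per comparison, and leaving out 1 took some away. Without experiment 5, G6pdx, Tkt and Idh1 missed the threshold in Atg7 cKO (1.09, 1.02 and -0.47; limma adjusted p = 0.0534, 0.0536 and 0.0596), and without experiment 2 Rpia did (0.45, limma adjusted p = 0.134) while H6pd passed (0.36, limma adjusted p = 0.0434). Without experiment 3 or 6, G6pdx and Pgls missed it in the double knockout (limma adjusted p = 0.0729 and 0.0622 for G6pdx, 0.124 and 0.0946 for Pgls). Calls were also gained there, for Taldo1 without experiment 2 or 5 (limma adjusted p = 0.0328 in both) and for Nnt without experiment 1 or 4 (limma adjusted p = 0.0289 in both), and Nnt was then called in the direct comparison too (limma adjusted p = 0.0459). Without experiment 7, Pgd, Tkt, Me1 and Idh1 missed it in the direct comparison (-1.95, -1.68, -1.54 and -0.55; limma adjusted p = 0.0504, 0.0592, 0.146 and 0.284). When the difference between both Atg7-deficient genotypes was taken through wild type, it kept a call for Pgd, Tkt and Taldo1 (-1.63, -1.49 and -1.05; limma adjusted p = 0.0286, 0.0396 and 0.0172). On the processed signals these 3 missed the threshold by that route (limma adjusted p = 0.0694, 0.0723 and 0.0567), as they did without experiment 1, 3, 4 or 6. Without experiment 2 or 5 Pgd and Tkt missed it by that route, and with slide as a block Pgd did (limma adjusted p = 0.0674).

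Genes most like each member were sought over the 8 experiments of the value table as those of smallest root mean square difference in log2 ratio. For Pgd these were Entpd2 (0.147), Slc39a4 (0.289) and Lama2 (0.293). Those of Tkt were Rab3d (0.245), Gstm5 (0.246) and Lama5 (0.26), and those of Taldo1 were Eif4ebp1 (0.125), Nln (0.135) and Gars (0.157). G6pdx lay nearest to Mcm3 (0.218), Jun (0.237) and Mcm4 (0.251), of which Mcm3 and Mcm4 encode parts of the DNA replication helicase. Rpia lay nearest to Map4 (0.153), Shq1 (0.173) and Cgnl1 (0.175). Idh1 lay nearest to Sord (0.121), Khk (0.128) and Ston2 (0.137), of which Sord and Khk encode enzymes of sorbitol and fructose metabolism. Me1 had no gene closer than Mpv17l (0.419), Ppp1r3c (0.425) and Akr1c14 (0.427), and Pgls none closer than Leng1 (0.052), Vmac (0.058) and Vps4a (0.062). Among the 10 genes the closest pair in which both were called in Atg7 cKO was Tkt and Taldo1 (0.419).

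Other genes of pentose and ribose phosphates went partly with the members. Of 10 tested genes of this list (12 listed) 5 rose and 2 fell in Atg7 cKO. Against wild type the double knockout had 1 higher and 5 lower, and against Atg7 cKO 0 higher and 3 lower. The medians were 0.05, -0.19 and -0.45. Pgm1, a phosphoglucomutase gene, had 0.62 in Atg7 cKO, while the double knockout had -0.90 against wild type and -1.61 against Atg7 cKO, and its interaction passed (-1.58, limma adjusted p = 0.0323). Gpi1, the isomerase between glucose 6-phosphate and fructose 6-phosphate, had 0.71 and -0.05 against wild type and -0.82 directly (limma adjusted p = 0.00796, 0.766 and 0.0132). Tigar, a phosphatase known to favour the pathway, had 0.48, 0.00 and -1.44 (limma adjusted p = 0.00349, 0.968 and 0.00572). The last value comes from the deposited ratios, without the offset that shrinks the ratios to wild type, so the sizes are not on the same scale. Shpk, the sedoheptulose kinase, fell in both Atg7-deficient genotypes (-0.67 in Atg7 cKO, -1.12 in the double knockout). Dera (-0.66) and Rbks (-0.55), which handle deoxyribose phosphate and ribose, fell in the double knockout.

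In the wider list of NADPH and NADP supply more genes were called lower than higher. Of 17 tested genes (18 listed) 3 rose and 7 fell in Atg7 cKO (median -0.18). The double knockout had 3 higher and 9 lower against wild type (median -0.52), and 0 higher and 2 lower against Atg7 cKO (median -0.23). Over all genes the shares higher and lower were 23.4% and 16.3%, 21.4% and 16.0%, and 6.74% and 8.08% in the same order. Mthfd1l, a mitochondrial enzyme of one-carbon metabolism, had 1.38 in Atg7 cKO, while the double knockout had 0.34 against wild type and -1.64 against Atg7 cKO, and its interaction passed (-0.86, limma adjusted p = 0.0315). Idh2, the mitochondrial counterpart of Idh1, had 0.38 (limma adjusted p = 0.0512), -0.52 (0.0209) and -0.98 (0.0412). The folate enzyme Mthfd1 (-0.97 and -1.21) and Aldh1l1 (-1.07 and -1.41), which makes NADPH from formyl folate, fell in both Atg7-deficient genotypes. Slc37a4, the carrier of glucose 6-phosphate into the endoplasmic reticulum, did so too (-1.01 and -1.52). Mdh1, cytosolic malate dehydrogenase, fell in the double knockout (-0.99).

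Reductases that use NADPH showed the widest spread. Of 15 tested genes 8 rose and 3 fell in Atg7 cKO (median 1.68). The double knockout had 2 higher and 7 lower against wild type (median -0.38), and 0 higher and 9 lower against Atg7 cKO (median -1.35). Over all genes the shares higher and lower were 23.4% and 16.3%, 21.4% and 16.0%, and 6.74% and 8.08% in the same order. Ptgr1, a prostaglandin reductase, had 2.67 and 0.55 against wild type in this order and -2.52 directly. Blvrb, biliverdin reductase B, had 1.96, -0.41 and -2.34. Cbr3, a carbonyl reductase, had 4.99 and 1.61, both called, and -5.21 directly. Akr1b3, aldose reductase, rose in both (2.03 and 1.81) and had 0.27 and -0.77 in the direct experiments, as G6pdx did with 0.24 and -0.58. Nqo1, Gclc and Txnrd1, known Nrf2 targets taken as reference genes, had -3.81, -3.22 and -2.35 in the direct comparison. For the probes used in the tests these are larger in size than the values of the 10 genes, but the second Me1 probe, with a mean of -2.64, exceeded Txnrd1.

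**Figure D4:**
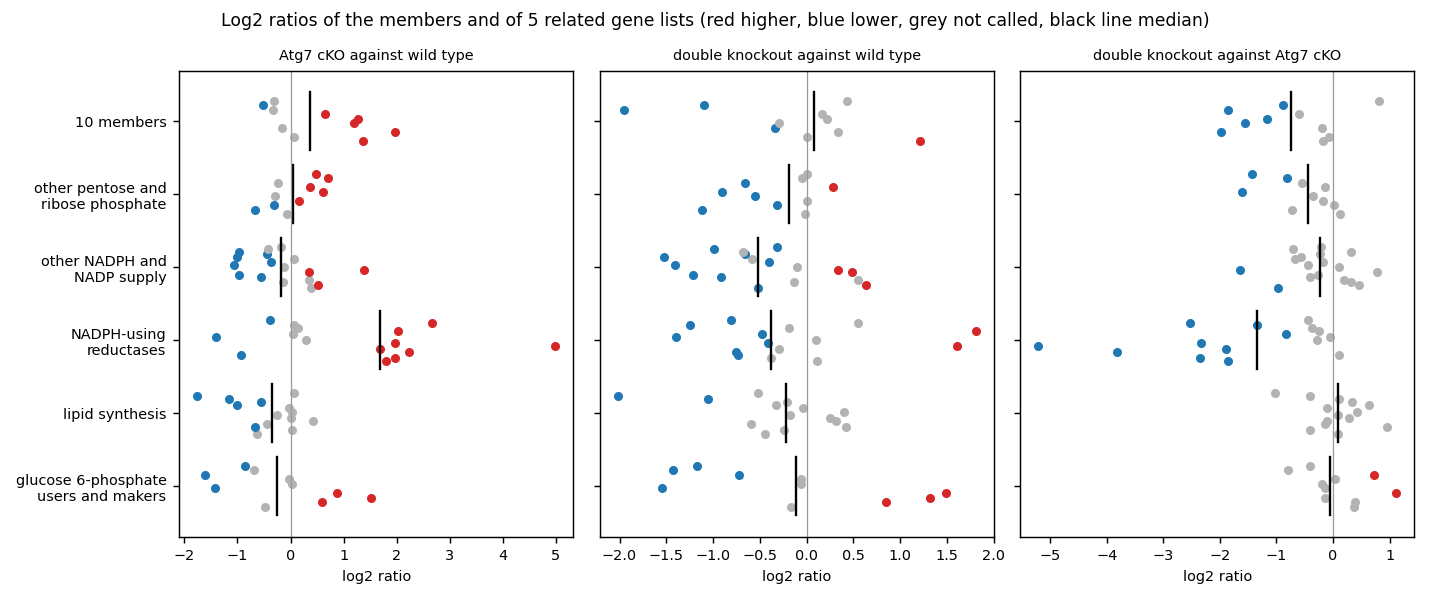
Log2 ratios of the 10 members and of the tested genes of 5 related lists, for Atg7 cKO against wild type and for the double knockout against wild type and against Atg7 cKO; each point is a gene, red if called higher, blue if called lower and grey if not called, and the black line is the median. The horizontal scale differs between panels. Members have medians of 0.36, 0.08 and -0.75, NADPH-using reductases 1.68, -0.38 and -1.35.

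Lipid synthesis genes, which use NADPH or share its regulators, had 0 of 14 higher and 5 lower in Atg7 cKO and 0 higher and 2 lower in the double knockout. Directly compared, 0 were called by limma (2 had an unadjusted p under 0.05). Thrsp, a lipogenic regulator, had -1.76 in Atg7 cKO, and the double knockout had -2.02. Mlxipl, which encodes the glucose-sensing factor ChREBP, had -1.16 and -1.05, and Srebf1, Scd1 and Srebf2 fell in Atg7 cKO (-1.01, -0.67 and -0.55). Genes that make or use glucose 6-phosphate went both ways, with 3 of 10 higher and 3 lower in Atg7 cKO and 3 higher and 4 lower in the double knockout. The hexokinases Hk2 (1.51 and 1.32) and Hk3 (0.88 and 1.49) rose, and G6pc, glucose-6-phosphatase (-1.42 and -1.55), and Fbp1, a gluconeogenic phosphatase (-1.62 and -0.72), fell. Pygl, liver glycogen phosphorylase, fell in both (-0.86 and -1.17) and Gys2, liver glycogen synthase, in the double knockout (-1.43).

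Markers of cell types moved with the Atg7-deficient genotypes, and their part in the changes above was not tested. In bulk liver fewer cells of a type and less RNA per cell cannot be told apart. Against wild type 23.4% of all genes were higher and 16.3% lower in Atg7 cKO, and 21.4% and 16.0% in the double knockout. Of 7 tested hepatocyte markers 6 fell in Atg7 cKO, and 5 fell in the double knockout. Their summed signal was 30707 and 34082 in Atg7 cKO and 34038 and 51749 in the double knockout, against 54144 to 84687 in wild type. Of 8 macrophage markers 8 rose in both, with summed signals of 20196 and 33555 in Atg7 cKO and 43013 and 46922 in the double knockout, against 5271 to 7554 in wild type. In the direct comparison 1 macrophage marker was higher and 1 lower. There 3 of 5 lymphocyte, 1 of 4 neutrophil and 1 of 7 hepatocyte markers were also higher, and 1 of 6 endothelial and 1 of 6 cholangiocyte markers lower. Over all genes 6.74% were higher and 8.08% lower. Of the stellate, proliferation and erythroid genes 0 were called there by limma (2, 1 and 0 had an unadjusted p under 0.05). All 6 proliferation genes rose in Atg7 cKO, and 5 rose in the double knockout, with summed signals of 981 to 1503 and of 933 to 949, against 411 to 478 in wild type. Stellate cell genes (4 of 6) and cholangiocyte genes (3 of 6) rose in both, with summed signals of 2841 to 3038 and 3602 to 3630 in Atg7 cKO and 2656 to 2828 and 3919 to 4643 in the double knockout, against 1336 to 1514 and 865 to 1104 in wild type. Neutrophil genes (4 tested) had 2 higher in Atg7 cKO, while 3 were higher in the double knockout, with summed signals of 646 and 1314 in Atg7 cKO and 2684 and 4589 in the double knockout, against 393 to 544 in wild type. Lymphocyte genes (5 tested) had 2 higher in Atg7 cKO, and 3 were higher in the double knockout. Endothelial genes (6) had 2 higher in Atg7 cKO and 1 higher and 3 lower in the double knockout, and erythroid genes (3 tested) 0 called by limma in either, with 0 at an unadjusted p under 0.05. Serpina1a, Ly6g, Elane, Cd79a and Hbb-b1 had no probe that was well above background in at least 4 channels and were not tested. In Nrf2 KO 0 genes of these lists were called by limma (3 had an unadjusted p under 0.05).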

How the data were processed

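Liver RNA was measured on 2-colour arrays. The scanner files of experiments 1 to 6 (12 arrays) hold spot signals and local background as intensity, made with Agilent Feature Extraction 9.5.1.1 per the file headers (9.5.1 per the submitters' processing notes), with probe coordinates on mm9. The deposited value table holds log10 ratios of 16 arrays, with column medians of 0. On the 12 arrays with scanner files it differed from their log10 ratio of Cy5 over Cy3 by less than 0.005. Experiments 7 and 8 were read from it, and their 4 arrays were not compared with scanner files. Spots well above background made up 43.4% to 57.2% of a channel, and at most 1 spot per array was saturated. The number of arrays limits the precision.

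Signals were corrected with normexp (offset 50) and loess in limma 3.58.1 under R 4.3.3, turned to knockout over partner, and averaged within a dye swap. The offset shrinks ratios of dim genes, and the value table carries no such offset. Control spots and flagged outliers were left out. Probes well above background in at least 4 of 24 channels were kept, the brightest for each gene. Of 41174 probes 24844 were named by RefSeq accession, 6045 by symbol, 1810 by synonym and 8475 as in the file; 0 probes of the 10 genes were renamed by accession. Experiments 1 to 6, fitted with 3 group means, gave the ratios to wild type and the interaction (residual degrees of freedom 3, prior 2.21), and the value table as log2, fitted with 4 group means on its 8 experiments, gave the direct comparison (4, prior 2.13). The comparisons with wild type share their spread but not their wild-type hybridisations, and the direct comparison shares the Atg7 cKO and double knockout genotypes. P-values were adjusted by Benjamini-Hochberg over all genes, with a threshold of 0.05. The fits were tested on simulated data. The 10 genes, the lists and the alternatives were chosen with earlier results of these data known. Listed genes were named if called in at least 1 of the 4 comparisons, up to 6 per list by size, besides Nfe2l2, Atg7, Nqo1, Gclc and Txnrd1. Up to 5 promoters were printed by number of calls, then by size in Atg7 cKO.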

Additional observations from a re-analysis of the deposited data

How the results depend on the processing

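Each ratio pairs a knockout with its partner on the same arrays. Across comparisons no pairing was taken from the labels, as the comparisons share no replicate numbers. The set of experiments (1 to 3 against 4 to 6) and slide were fitted as blocks instead. Ratios to wild type from a fit with a block are estimates for its first level, that is experiments 1 to 3 or the first slide. The interaction from such a fit is also an estimate for that level. Counts of genes called on either refer to that level and not to an average over levels. The first slide held no double knockout array, so calls and counts for that genotype with slide as a block rest on extrapolation. Over 14 alternatives the 10 genes had 0 called changes of sign. Of 700 values 619 kept their direction and side of the threshold or stayed within the spread, 28 lost the call, 17 gained it and 36 uncalled ones moved by more than the spread. Leaving out 1 experiment at a time gave 3 to 6 members and 3176 to 5873 genes called in Atg7 cKO, 2 to 5 and 2822 to 6164 in the double knockout, 1 to 5 and 301 to 1827 in the direct comparison, 0 and 2 to 62 in the interaction, and 0 and 0 to 2 in Nrf2 KO (limma, where 362 or more genes had an unadjusted p under 0.05). Slide as a block, which leaves few residual degrees of freedom, gave 4300 genes in Atg7 cKO, 1363 genes and 1 member (Idh1) in the double knockout, 28 genes in the interaction and 0 genes in Nrf2 KO by limma (979 at an unadjusted p under 0.05). The set of experiments as a block gave 5 genes in Nrf2 KO and 261 genes with 1 member in the interaction. Single arrays with a dye effect and experiment as a random block gave 91 genes and 1 member (Me1) in Nrf2 KO and 1186 genes and 4 members in the interaction. Without background correction, and without the filter, 1 gene passed in Nrf2 KO, and on the processed signals 6 genes passed in the interaction. The direct comparison had 106 genes and 0 members by limma from experiments 7 and 8 alone, and 813 genes and 3 members through wild type. With both routes together it had 5599 genes, with 1 member higher and 6 lower. The cause of these differences was not tested. With 2 experiments per comparison, a value left alone is assumed to vary like the other groups.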
